A study of Homo sapiens with 48 samples.

Results

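The 8 genes described here encode cell surface antigens that are used as targets of antibodies or engineered cells, or as diagnostic markers, in lymphoma and myeloma: MS4A1 (CD20), CD22, CD37, CD52, CD70, CD38, SDC1 (syndecan-1, CD138) and MME (CD10). They were taken by gene symbol from the raw count table and are 8 of its 37706 genes. All 8 passed the filter on low counts, which left 17749 genes to test, although CD70 and SDC1 passed it through only some of the lines.

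The RNA came from 4 established lines of diffuse large B cell lymphoma that the labels class as GCB, the germinal centre B cell subtype: SUDHL6, Oci-Ly7, Oci-Ly8 and Oci-Ly18. Each line was grown for 6 days with both inhibitors together (the combination), with the EZH2 inhibitor GSK343 (EZH2i), with the DOT1L inhibitor EPZ-5676 (DOT1Li) or with the vehicle DMSO, and cells of every group were reseeded in fresh medium at day 3. There are 3 libraries in each of the 16 groups, 48 in all, and every line has its own DMSO group. Whether replicates were separate cultures is not given in the labels, and the p-values then cover only a spread between libraries that may be technical.

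As background, DOT1L methylates histones within genes that are being transcribed, while EZH2 does the methylating work within PRC2, a Polycomb complex whose histone mark keeps genes silent. The 8 antigens mark different points of the B cell lineage. MS4A1, CD22 and CD37 are carried by mature B cells and are lost or lowered in plasma cells, CD52 is carried by most lymphocytes, MME and CD38 are both on germinal centre B cells, CD38 and SDC1 are on plasma cells, and CD70 appears on activated lymphocytes. Surface protein was not measured, so every value below is a transcript level.

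Library totals ran from 5174269 counts in Oci-Ly8 DOT1Li replicate 3 to 18845074, and the next lowest was 11391942. Oci-Ly8 DMSO replicate 3 and Oci-Ly8 DOT1Li replicate 3 stood apart from the other 46 libraries in how few of their counts came from long transcripts, with slopes of log2 level against log2 length of exon at 0.357 and 0.378, where the others had 0.484 to 0.675. Levels are in CPM, each count as a share of the library's TMM-scaled total of counts. Of the markers used to check the label, all 8 B cell markers had counts in every group, with summed levels of 1917 to 3802 CPM per library. The 9 germinal centre markers summed to 57.3 to 760.4 CPM, lowest in SUDHL6 DMSO and highest in Oci-Ly7 DMSO. The 9 plasma cell markers summed to 394 to 2069 CPM. Markers of other cells summed to 12.4 to 285 CPM for 10 T cell genes, of which 1 to 7 were at 0 in a group, and 0.778 to 25.2 CPM for 8 NK cell genes, of which 1 to 6 were at 0. The sums were 0.119 to 26.4 CPM for 8 of 10 myeloid genes found in the table (1 to 5 at 0), 0 to 12.96 CPM for 6 of 7 epithelial genes (1 to 6 at 0) and 4.49 to 121 CPM for 9 fibroblast or endothelial genes (0 to 5 at 0).

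In DMSO, the lines differed in which antigen transcript led. Per kilobase of exon, MS4A1 was the highest of the 8 in Oci-Ly7 at 290.5 ± 3.60 CPM per kilobase (SD, n = 3) and in Oci-Ly18 at 140 ± 1.85. In Oci-Ly8 CD52 had 171 ± 44.7 and MS4A1 114 ± 28.3 CPM per kilobase, within the spread of each other. SUDHL6 was different in kind: MME led at 69.3 ± 1.89 and SDC1 followed at 16.8 ± 0.630, while MS4A1 stood at 8.51 ± 0.696 CPM per kilobase. The lowest in DMSO were SDC1 in Oci-Ly7, Oci-Ly8 and Oci-Ly18 and CD70 in Oci-Ly8 and SUDHL6.

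**Figure D1:**
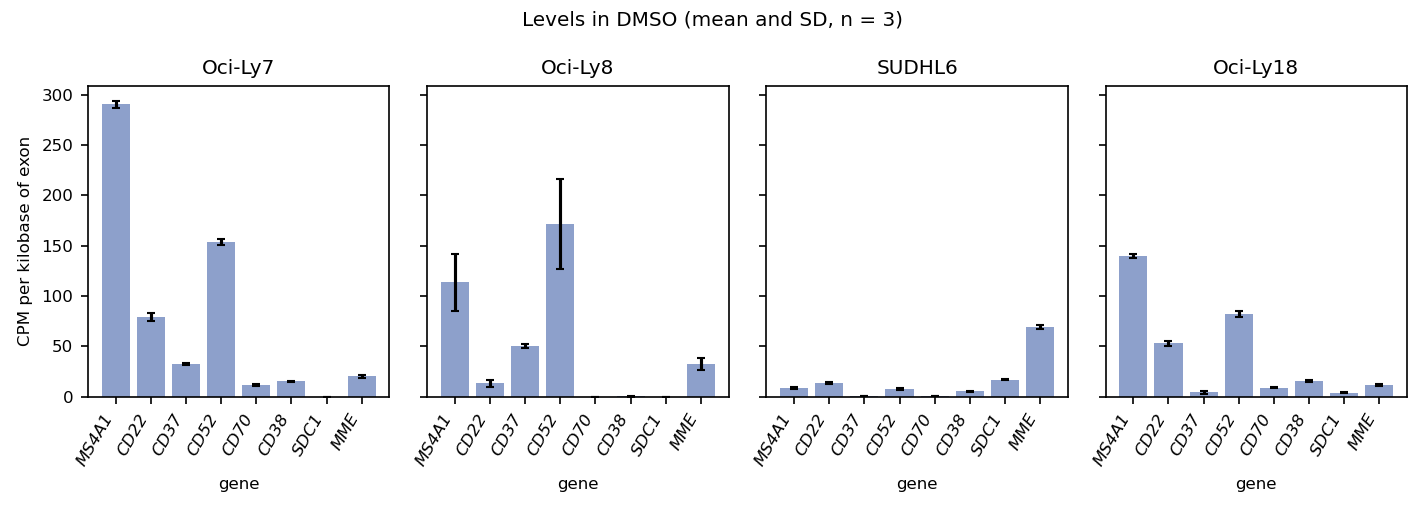
Bars give the mean level of each of the 8 antigen genes in DMSO in CPM per kilobase of exon (linear axis from 0), with SD over 3 libraries, in 1 panel per line. MS4A1 leads in Oci-Ly7 and Oci-Ly18, and MME leads in SUDHL6.

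The DMSO levels of MS4A1, CD22, CD37, CD52, CD38 and MME, the 6 genes with counts in every line, each differed between the lines by an F test in the fit of all genes, where 93.1% of all genes tested were called at an adjusted p under 0.05. For CD70 and SDC1, which passed the filter through some lines only, the levels are a description. CD37, a tetraspanin, was ordered Oci-Ly8, Oci-Ly7, Oci-Ly18 and SUDHL6, with means of 209, 134, 17.3 and 3.90 CPM, and each neighbour in that order differed. MS4A1 was ordered Oci-Ly7, Oci-Ly18, Oci-Ly8 and SUDHL6, with 1415, 681, 555 and 41.5 CPM, although the libraries of Oci-Ly18 and Oci-Ly8 overlapped. MME ran nearly the other way, with 667 CPM in SUDHL6, 313 in Oci-Ly8, 193 in Oci-Ly7 and 111 in Oci-Ly18. In both of these genes every neighbour differed. The neighbours that did not differ beyond their spread were SUDHL6 and Oci-Ly8 for CD22 (Oci-Ly8 minus SUDHL6 log2 -0.01, edgeR adjusted p = 0.967), Oci-Ly18 and Oci-Ly7 for CD38 (Oci-Ly7 minus Oci-Ly18 log2 -0.06, edgeR adjusted p = 0.677), and Oci-Ly8 and Oci-Ly7 for CD52 (Oci-Ly7 minus Oci-Ly8 log2 -0.15, edgeR adjusted p = 0.208). SDC1 stood at 0 in DMSO in both Oci-Ly7 and Oci-Ly8. CD70 had no count in any of the 12 Oci-Ly8 libraries and SDC1 none in any of the 12 Oci-Ly7 libraries or the 3 of Oci-Ly8 DMSO. A count of 0 over the 3 DMSO libraries allows up to 0.0764 CPM in Oci-Ly8 and 0.0632 CPM in Oci-Ly7, for counting error only. CD70 was therefore at least 239-fold higher in Oci-Ly7 DMSO than in Oci-Ly8 DMSO, and SDC1 at least 957-fold higher in SUDHL6 DMSO than in Oci-Ly7 DMSO, where the bound takes 3 counts in the group of libraries at 0.

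**Figure D2:**
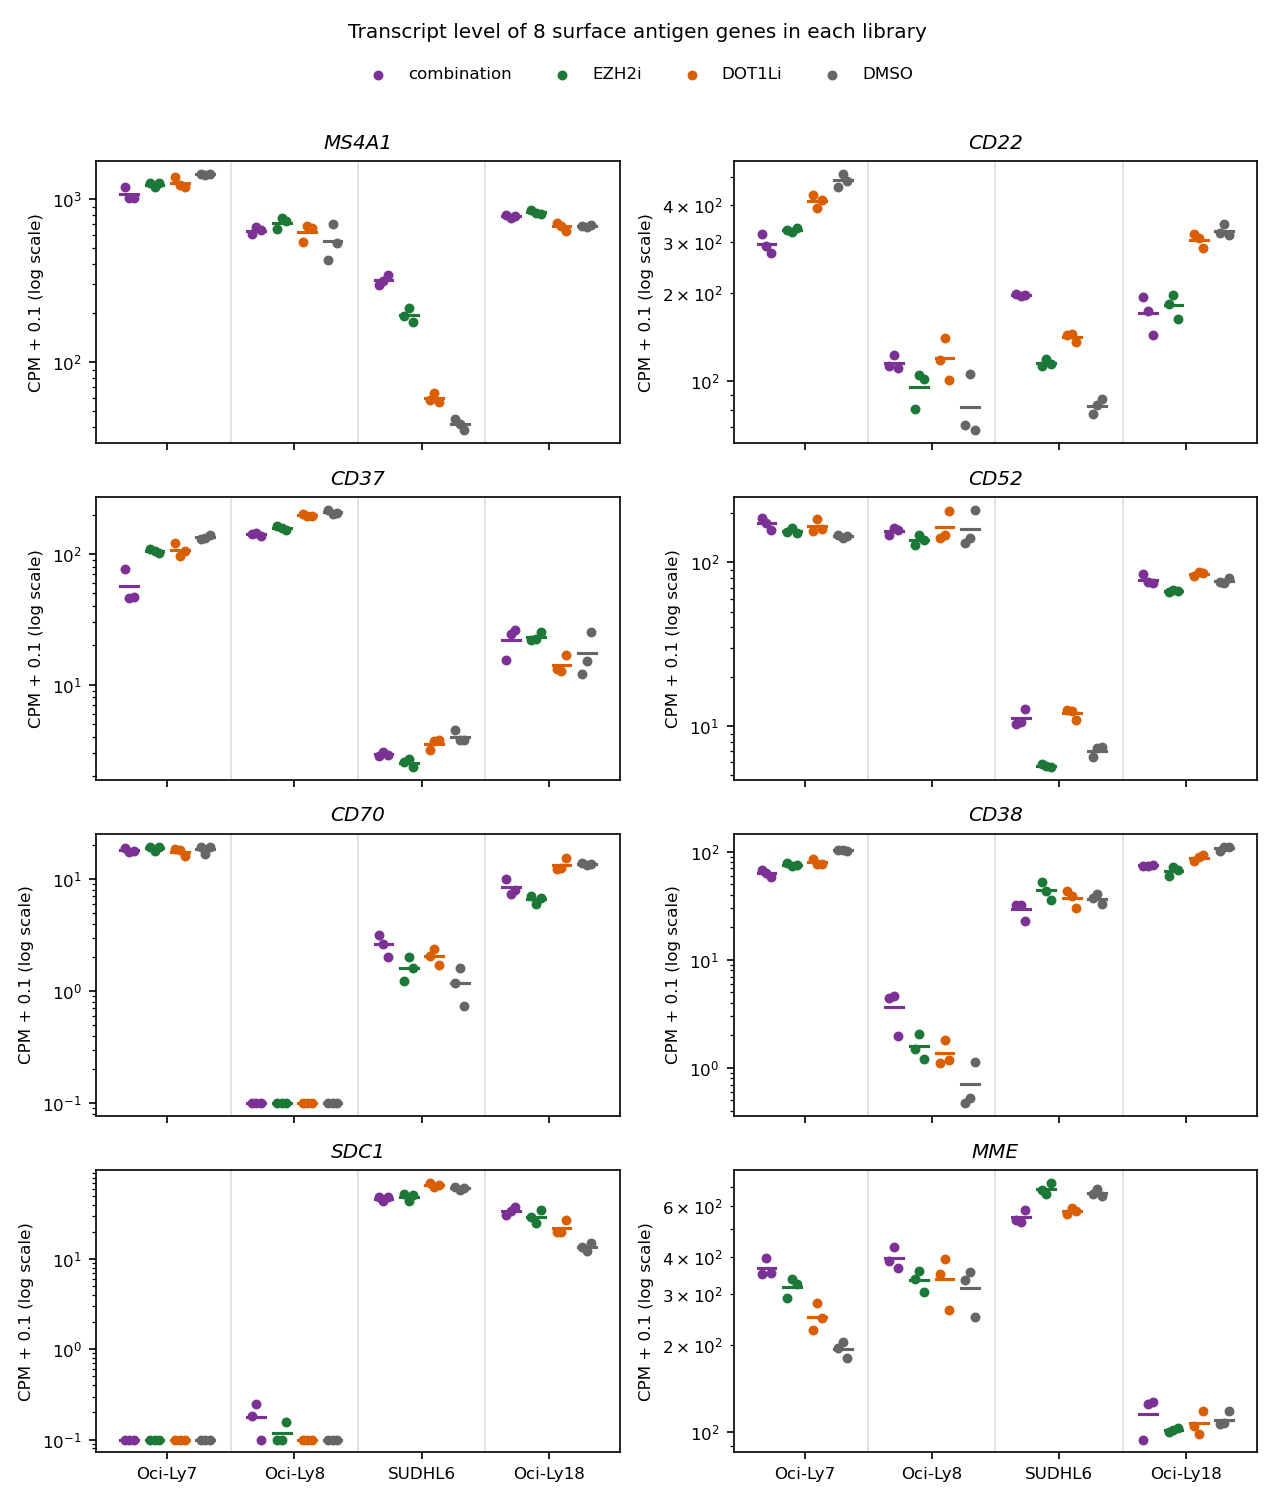
Each point is 1 library and each short line a group mean, as CPM + 0.1 on a log axis, for the 8 genes in the 4 lines under the combination, EZH2i, DOT1Li and DMSO. In SUDHL6 the 3 treated groups of MS4A1 stand above DMSO, and the points at the bottom of the CD70 and SDC1 panels are libraries with no count.

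Treatment changed these transcripts in both directions, and the direction of most genes depended on the line. For the combination, 21 of 32 gene and line pairs passed the test against DMSO, 10 higher and 11 lower, where 34.8% of such pairs over all genes passed (19.9% higher and 14.9% lower). For EZH2i, 13 of 32 pairs passed, 7 higher and 6 lower, where 18.9% passed over all genes (11.2% higher and 7.64% lower). For DOT1Li, 5 of 32 passed, all higher, where 5.04% passed over all genes (3.01% higher and 2.03% lower). At an unadjusted p under 0.05 in edgeR there were 13 of 32, a threshold at which the share over all genes was not taken. Of these, CD22, CD37 and CD38 in Oci-Ly7 and CD38 in Oci-Ly18 were lower, and the rest were higher. With the replicate number as a block the counts of calls were 20 of 32 for EZH2i and 11 of 32 for DOT1Li. The share over all genes was not taken with the block, so these counts cannot be set beside the shares above. Averaged with equal weight over the 4 lines, 4 of 8 genes were called for the combination (46.4% of all genes), 3 of 8 for EZH2i (28.2% of all genes) and 2 of 8 for DOT1Li (10.3% of all genes). CD70 and SDC1 could not be called in these averages because a line without counts takes part. Over the lines with counts, SDC1 was higher with DOT1Li by 0.41 (edgeR adjusted p = 0.000937, SUDHL6 and Oci-Ly18). In Oci-Ly18 its means were 22.1 CPM with DOT1Li and 13.6 CPM with DMSO, a called rise. In SUDHL6 they were 65.7 and 60.5 CPM, and SDC1 was not called there. For the combination its value of 1.44 (edgeR adjusted p = 0.0435) includes Oci-Ly8, where DMSO had no count, so that its size depends on the fit. A call means an edgeR quasi-likelihood F test with a Benjamini-Hochberg adjusted p under 0.05 over all genes tested. These are bulk samples, in which fewer cells carrying a transcript and less of it per cell cannot be told apart.

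**Figure D3:**
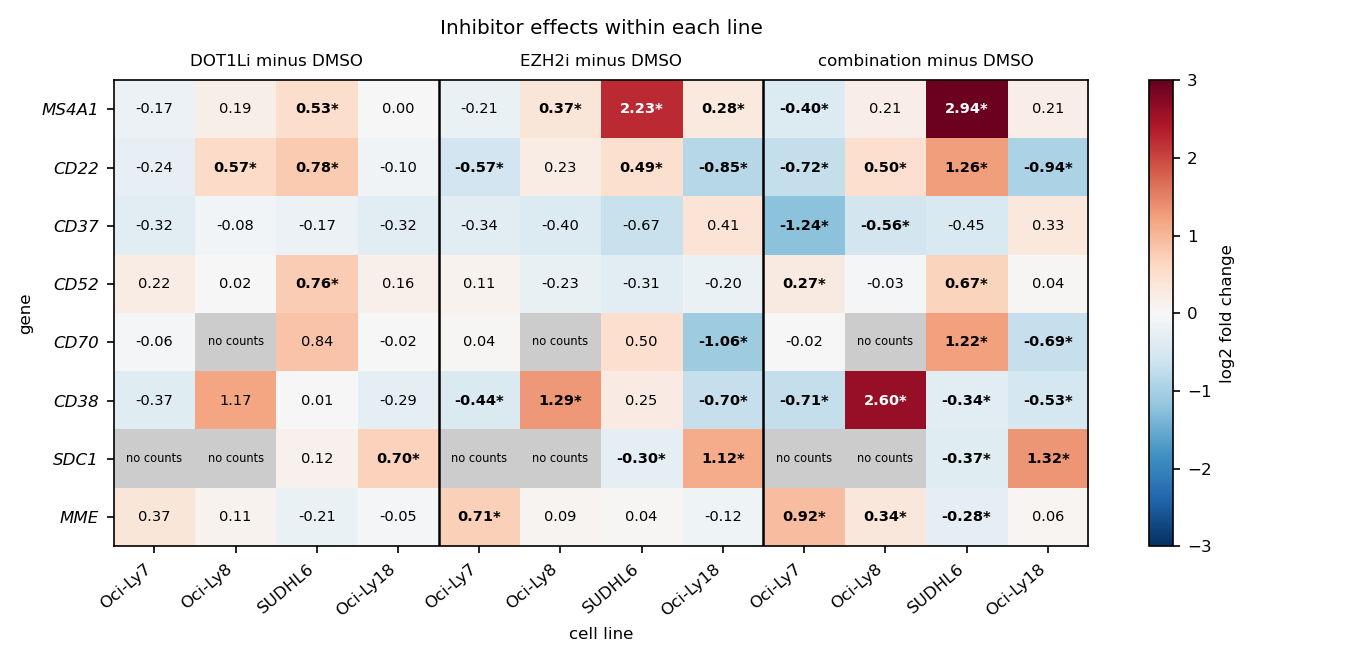
The colour and number in each cell give the log2 fold change against DMSO of 1 gene (rows) in 1 line (columns) for DOT1Li, EZH2i and the combination, on a scale of -3 to 3. Bold numbers with a star are called, and grey cells have no count in a compared group. MS4A1 in SUDHL6 and CD38 in Oci-Ly8 are the darkest cells, and CD22 has red cells in Oci-Ly8 and SUDHL6 and blue cells in Oci-Ly7 and Oci-Ly18.

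Among the B cell lineage antigens, MS4A1 (ENSG00000156738, chromosome 11, 60455846 to 60470752, GRCh38) encodes CD20, the membrane protein bound by rituximab. In SUDHL6, where it was scarce in DMSO, its level was 297, 316 and 339.7 CPM with the combination, 191, 216 and 177 CPM with EZH2i and 58.7, 64.2 and 57.2 CPM with DOT1Li, against 44.8, 41.5 and 38.1 CPM with DMSO. The 4 groups did not overlap, and each inhibitor group stood above DMSO. The log2 fold changes against DMSO were 2.94 ± 0.11 (SE, edgeR adjusted p = 2.10e-25) for the combination, 2.23 ± 0.11 (edgeR adjusted p = 1.04e-20) for EZH2i and 0.53 ± 0.11 (edgeR adjusted p = 0.00119) for DOT1Li. The combination also stood above EZH2i alone by 0.70 (edgeR adjusted p = 2.22e-06) and above DOT1Li alone by 2.40 (edgeR adjusted p = 1.76e-22). Of all genes tested, 2.16% had a higher log2 fold change than MS4A1 for the combination in SUDHL6. Even so, the SUDHL6 combination mean of 317 CPM was below the DMSO mean of each other line. In SUDHL6 the 9 germinal centre markers summed to 110 to 126 CPM with the combination and 95.4 to 106 CPM with EZH2i, against 57.3 to 67.1 CPM with DMSO. Of the 8 of these markers tested, 5 rose and 0 fell with the combination and 4 rose and 0 fell with EZH2i. Over all genes 39.3% were called with the combination in SUDHL6, and 18.9% of gene and line pairs with EZH2i. The part of these markers in the MS4A1 result was not tested.

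Elsewhere the changes of MS4A1 were small. In Oci-Ly7 it fell with the combination to 1181, 1016 and 1011 CPM, against 1429, 1396 and 1422 CPM with DMSO, a log2 fold change of -0.40 ± 0.10 (SE, edgeR adjusted p = 0.000972) with no overlap. In Oci-Ly18 it rose with EZH2i to 852, 825 and 807 CPM, against 683, 671 and 689 CPM with DMSO (log2 0.28 ± 0.10, edgeR adjusted p = 0.0306). That call was lost on leaving out any of 5 of the 6 libraries compared, with values of 0.26 to 0.29 and an adjusted p up to 0.0970. In Oci-Ly8 the DMSO libraries themselves ranged from 424 to 699 CPM, and EZH2i gave 655, 760.2 and 731 CPM (log2 0.37 ± 0.10, edgeR adjusted p = 0.00619). These groups overlapped, and the value was 0.21 (edgeR adjusted p = 0.0949) without Oci-Ly8 DMSO replicate 1 and 0.57 without Oci-Ly8 DMSO replicate 2. The averages over lines, 0.74 ± 0.05 for the combination and 0.67 ± 0.05 for EZH2i, thus hold a large value from SUDHL6 and values of either sign from the other lines.

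CD22 (ENSG00000012124, chromosome 19, 35319261 to 35347361, GRCh38) encodes a Siglec, a lectin for sialic acid that dampens B cell receptor signalling and is bound by inotuzumab ozogamicin. It was called in 9 of its 12 comparisons with DMSO, 5 higher and 4 lower. In SUDHL6 it rose with the combination to 199, 196 and 198 CPM, with EZH2i to 113, 119 and 114 CPM and with DOT1Li to 144, 145 and 136 CPM, against 77.1, 82.8 and 86.9 CPM with DMSO. All 4 groups were apart, in the order combination, DOT1Li, EZH2i, DMSO. The log2 fold changes were 1.26 ± 0.11 (SE, edgeR adjusted p = 2.99e-12), 0.49 ± 0.11 (edgeR adjusted p = 0.000963) and 0.78 ± 0.11 (edgeR adjusted p = 1.18e-05) for the combination, EZH2i and DOT1Li. In Oci-Ly8, too, CD22 was higher, at 113, 123 and 111 CPM with the combination (log2 0.50 ± 0.11, edgeR adjusted p = 0.000472) and 119, 141 and 101 CPM with DOT1Li (log2 0.57 ± 0.11, edgeR adjusted p = 0.000886), against 70.7, 106 and 67.9 CPM with DMSO. The DOT1Li libraries of Oci-Ly8 overlapped with DMSO, and the combination libraries did not.

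In the other two lines CD22 fell. In Oci-Ly7 it had 318, 291 and 276 CPM with the combination and 328, 324 and 335 CPM with EZH2i, against 462, 513 and 486 CPM with DMSO. The log2 fold changes were -0.72 ± 0.11 (edgeR adjusted p = 6.47e-07) and -0.57 ± 0.11 (edgeR adjusted p = 0.000125). In Oci-Ly18 it had 194, 174 and 144 CPM with the combination and 184, 197 and 164 CPM with EZH2i, against 321, 344 and 316 CPM with DMSO, which are log2 fold changes of -0.94 ± 0.11 (edgeR adjusted p = 3.07e-09) and -0.85 ± 0.11 (edgeR adjusted p = 6.00e-08). Neither line had overlap with DMSO in these groups. In Oci-Ly18 the germinal centre markers summed to 234 to 281 CPM with the combination and 305 to 313 CPM with EZH2i, against 469 to 519.6 CPM with DMSO, with 1 higher and 6 lower of the 8 tested under either treatment. In Oci-Ly7 1 was higher and 5 lower with the combination and 0 higher and 1 lower with EZH2i. Over all genes the combination had 35% called in Oci-Ly18 and 29.8% in Oci-Ly7, and EZH2i 18.9% of gene and line pairs. The part of these markers in the CD22 result was not tested. DOT1Li gave -0.24 in Oci-Ly7 and -0.10 in Oci-Ly18, neither called. The lines moved so differently that the average for the combination was 0.03 ± 0.05, and the average for EZH2i, -0.17 ± 0.05 (edgeR adjusted p = 0.0133), became -0.11 (adjusted p = 0.0567) without Oci-Ly8 DMSO replicate 2. The average for DOT1Li was 0.26 ± 0.05 (edgeR adjusted p = 0.00122).

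CD37 (ENSG00000104894, chromosome 19, 49335171 to 49343335, GRCh38) encodes a leukocyte tetraspanin that organises other receptors in the membrane. Against DMSO it was called only with the combination, and as lower, in Oci-Ly7 and Oci-Ly8. In Oci-Ly7 it had 77.6, 45.9 and 46.9 CPM with the combination, against 132, 132 and 139 CPM with DMSO (log2 -1.24 ± 0.15, SE, edgeR adjusted p = 2.52e-08). The combination replicate at 77.6 CPM was well above its fellows and still below all DMSO libraries. In Oci-Ly8 it had 142, 146 and 137 CPM with the combination, against 217, 203 and 208 CPM with DMSO (log2 -0.56 ± 0.15, edgeR adjusted p = 0.00249), again without overlap. Set against EZH2i alone, the combination in Oci-Ly7 was at -0.90 in log2 (edgeR adjusted p = 5.87e-05), and EZH2i itself gave 109.6, 106 and 102 CPM, a log2 fold change of -0.34 that was not called. In SUDHL6, where CD37 had only 46 to 69 counts a library in the combination and DMSO groups, the combination gave -0.45 ± 0.30, and in Oci-Ly18, whose DMSO libraries ranged from 11.99 to 25.03 CPM, it gave 0.33 ± 0.18, neither called. CD37 shares 319 exonic bases with TEAD2 and 132 with AC011450.1 on the opposite strand, but these had at most 84 and 34 counts in a library. The strand setting of the counting is not given in the sources used here.

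CD52 (ENSG00000169442, chromosome 1, 26317958 to 26320523, GRCh38) encodes a very short peptide on a glycosylphosphatidylinositol (GPI) anchor, bound by alemtuzumab. All 3 of its calls against DMSO were higher. In SUDHL6 it had 10.2, 10.5 and 12.7 CPM with the combination, 5.73, 5.61 and 5.54 CPM with EZH2i and 12.5, 12.3 and 10.8 CPM with DOT1Li, against 6.36, 7.21 and 7.34 CPM with DMSO. The groups holding the DOT1L inhibitor stood above DMSO and the EZH2i group below it. The log2 fold changes were 0.67 ± 0.15 (SE, edgeR adjusted p = 0.000485) for the combination and 0.76 ± 0.16 (edgeR adjusted p = 0.00159) for DOT1Li, while EZH2i gave -0.31 ± 0.17 and was not called. The combination exceeded EZH2i alone by 0.98 in SUDHL6 (edgeR adjusted p = 3.09e-05). In Oci-Ly7 it rose with the combination to 186, 175 and 159 CPM, against 146, 141 and 144 CPM with DMSO (log2 0.27 ± 0.10, edgeR adjusted p = 0.0459), a call lost without any of 10 libraries, 5 of them in the compared groups, with values of 0.21 to 0.28 and an adjusted p up to 0.174. Averaged over lines CD52 rose by 0.29 ± 0.06 with DOT1Li (edgeR adjusted p = 0.000842) and 0.23 ± 0.06 with the combination (edgeR adjusted p = 0.00111), and the EZH2i average was -0.16 ± 0.06 and not called. Among the lines, DOT1Li was called only in SUDHL6. With any 1 library left out, DOT1Li gave 0.14 to 0.26 in Oci-Ly7, -0.15 to 0.25 in Oci-Ly8 and 0.14 to 0.19 in Oci-Ly18.

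In Oci-Ly8 the value of CD52 changed with the libraries left out. The combination gave 148, 163 and 157 CPM, against 132, 140.4 and 208 CPM with DMSO (log2 -0.03, not called). The library at 208 CPM is Oci-Ly8 DMSO replicate 3, and the DOT1Li library at 205 CPM is Oci-Ly8 DOT1Li replicate 3. These were the 2 libraries with few counts from long transcripts, and CD52, with 0.935 kb of exon, is the shortest of the 8 genes. The part of transcript length in these values was not tested. Without both, the log2 fold change of the combination in Oci-Ly8 was 0.225 (edgeR adjusted p = 0.00857). Of the 2, only the DMSO library is in this comparison. With any 1 library left out, the value lay between -0.16 and 0.20 and was not called (lowest edgeR adjusted p = 0.0967). CD52 also shares 25 exonic bases with UBXN11 on the opposite strand, which averaged 537 counts a library, and its part in the values was not tested.

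CD70 (ENSG00000125726, chromosome 19, 6583183 to 6604103, GRCh38) encodes the tumour necrosis factor family ligand of CD27. Its direction was opposite in the lines where it was called. In Oci-Ly18 it had 9.80, 7.23 and 7.84 CPM with the combination and 6.90, 5.85 and 6.65 CPM with EZH2i, against 13.9, 13.1 and 13.4 CPM with DMSO. Both treated groups were wholly below DMSO, with log2 fold changes of -0.69 ± 0.14 (SE, edgeR adjusted p = 0.000169) and -1.06 ± 0.15 (edgeR adjusted p = 6.60e-07). In SUDHL6, where it is near the limit of detection with 10 to 56 counts a library, it had 3.07, 2.55 and 1.89 CPM with the combination, against 1.08, 1.49 and 0.633 CPM with DMSO (log2 1.22 ± 0.24, edgeR adjusted p = 8.04e-05). DOT1Li gave 1.95, 2.25 and 1.61 CPM there, above every DMSO library, at 0.84 ± 0.26 and an edgeR adjusted p of 0.0526. In Oci-Ly7 the level lay between 15.97 and 19.3 CPM in all 12 libraries, and no treatment was called. Oci-Ly8 had no count under any treatment. Averaged over the 3 lines with counts, the combination exceeded EZH2i alone by 0.34 (edgeR adjusted p = 0.00804), whereas the combination against DMSO gave 0.17 and was not called. CD27, the receptor of CD70, averaged 8.91 CPM with the combination and 3.76 CPM with EZH2i, against 22.6 CPM with DMSO in Oci-Ly18, and at most 0.112 CPM in the SUDHL6 groups.

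The ectoenzyme CD38 (ENSG00000004468, chromosome 4, 15778275 to 15853232, GRCh38) consumes NAD outside the cell and is the target of daratumumab. It fell in the lines where it was abundant. In Oci-Ly7 it had 67.5, 63.6 and 58.3 CPM with the combination and 78.1, 74.2 and 75.2 CPM with EZH2i, against 104, 103 and 102 CPM with DMSO (log2 -0.71 ± 0.12, SE, edgeR adjusted p = 1.67e-05, and -0.44 ± 0.12, edgeR adjusted p = 0.0105). The 9 plasma cell markers of Oci-Ly7 summed to 1393 to 1598 CPM with the combination and 1396 to 1437 CPM with EZH2i, against 1862 to 2069 CPM with DMSO. Of the 9, 1 was higher and 5 lower under either treatment. Over all genes 29.8% were called with the combination in Oci-Ly7, and 18.9% of gene and line pairs with EZH2i. The part of these markers in the CD38 result was not tested. In Oci-Ly18 it had 74.0, 73.7 and 75.9 CPM with the combination and 59.5, 71.9 and 67.8 CPM with EZH2i, against 101, 111 and 111 CPM with DMSO (log2 -0.53 ± 0.12, edgeR adjusted p = 0.000772, and -0.70 ± 0.13, edgeR adjusted p = 4.36e-05). The DOT1Li libraries of both lines also lay below all DMSO libraries of their line, at -0.37 ± 0.12 and -0.29 ± 0.12, without being called. In SUDHL6 the combination gave 32.4, 31.99 and 22.98 CPM, against 37.1, 40.3 and 32.9 CPM with DMSO (log2 -0.34 ± 0.13, edgeR adjusted p = 0.0440). That call was lost on leaving out any of 4 libraries, and the value was -0.19 without SUDHL6 Combo replicate 3 (edgeR adjusted p = 0.322).

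Oci-Ly8 went the other way from a level close to none. CD38 had 54, 60 and 22 counts there with the combination, 19, 26 and 19 with EZH2i and 11, 22 and 5 with DOT1Li, against 5, 6 and 12 with DMSO. As levels these are 4.35, 4.51 and 1.85 CPM, 1.40, 1.93 and 1.10 CPM, and 1.01, 1.70 and 1.07 CPM in the treated groups, against 0.371, 0.425 and 1.03 CPM with DMSO. The combination and EZH2i did not overlap with DMSO, although the highest DMSO library came close to the lowest EZH2i library. The log2 fold change for the combination was 2.60 ± 0.39 (SE, edgeR adjusted p = 8.78e-07) and stayed between 2.35 and 3.15 with any 1 library left out. For EZH2i it was 1.29 ± 0.46 (edgeR adjusted p = 0.0468), and leaving out any of 20 libraries, 4 of them in the compared groups, took the adjusted p past 0.05, up to 0.181. The combination exceeded DOT1Li alone by 1.43 (edgeR adjusted p = 0.00292) and EZH2i alone by 1.31 (edgeR adjusted p = 0.00192). The 9 plasma cell markers summed to 640 to 702 CPM with the combination and 768 to 971 CPM with DMSO in Oci-Ly8. Of the 9, 4 rose and 3 fell with the combination, where 35% of all genes were called in Oci-Ly8. The part of these markers in the CD38 result was not tested.

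MME (ENSG00000196549, chromosome 3, 155024124 to 155183704, GRCh38) encodes neprilysin, a membrane peptidase that pathologists use as the germinal centre marker CD10. In Oci-Ly7 it had 350.4, 397 and 352 CPM with the combination, 289, 337 and 324 CPM with EZH2i and 225, 278 and 247 CPM with DOT1Li, against 196, 204 and 180 CPM with DMSO. Every treated library stood above every DMSO library. The log2 fold changes were 0.92 ± 0.11 (SE, edgeR adjusted p = 6.27e-09) for the combination, 0.71 ± 0.11 (edgeR adjusted p = 5.30e-06) for EZH2i and 0.37 ± 0.11 (edgeR adjusted p = 0.0557, not called) for DOT1Li. In the same line the 9 germinal centre markers summed to 426 to 546 CPM with the combination and 701 to 760.4 CPM with DMSO. Of the 8 tested, 1 was higher and 5 lower, where 29.8% of all genes were called in Oci-Ly7. The part of these markers in the MME result was not tested. In SUDHL6, the line with the most MME, the combination gave 537, 529 and 579 CPM, against 662, 687 and 651 CPM with DMSO (log2 -0.28 ± 0.11, edgeR adjusted p = 0.0342). That call was lost without any of 5 of the 6 libraries, with values of -0.30 to -0.25 and an adjusted p up to 0.111. In Oci-Ly8 the combination gave 388, 435 and 368 CPM, against 335, 354 and 249.2 CPM with DMSO (log2 0.34 ± 0.11, edgeR adjusted p = 0.0119). This value was 0.20 (edgeR adjusted p = 0.172) without Oci-Ly8 DMSO replicate 3, 0.27 without Oci-Ly8 Combo replicate 2, and 0.23 (adjusted p = 0.0572) without both libraries that stood apart. Oci-Ly18 lay between 94.3 and 127 CPM in all 12 libraries and had no call.

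SDC1 (ENSG00000115884, chromosome 2, 20200797 to 20225433, GRCh38) encodes a heparan sulfate proteoglycan whose gain marks the plasma cell. It moved in opposite directions in the lines that expressed it. In Oci-Ly18 it had 30.6, 33.7 and 37.4 CPM with the combination, 28.9, 24.97 and 34.4 CPM with EZH2i and 19.6, 19.7 and 27.1 CPM with DOT1Li, against 13.6, 12.3 and 14.8 CPM with DMSO. All 9 treated libraries stood above DMSO. The log2 fold changes were 1.32 ± 0.13 (SE, edgeR adjusted p = 1.43e-10), 1.12 ± 0.13 (edgeR adjusted p = 1.44e-08) and 0.70 ± 0.13 (edgeR adjusted p = 0.000363) for the combination, EZH2i and DOT1Li. In Oci-Ly18 the 9 plasma cell markers summed to 569 to 606 CPM with the combination and 667 to 719.9 CPM with EZH2i, against 543 to 612 CPM with DMSO. Of the 9, 5 rose and 1 fell with the combination, 6 rose and 0 fell with EZH2i and 2 rose and 1 fell with DOT1Li. Over all genes 35% were called with the combination in Oci-Ly18. Of gene and line pairs 18.9% were called with EZH2i and 5.04% with DOT1Li. The part of these markers in the SDC1 result was not tested. In SUDHL6 SDC1 fell to 47.96, 43.3 and 48.8 CPM with the combination and 52.8, 43.8 and 50.5 CPM with EZH2i, against 61.9, 57.9 and 61.7 CPM with DMSO. These are log2 fold changes of -0.37 ± 0.11 (edgeR adjusted p = 0.00553) and -0.30 ± 0.11 (edgeR adjusted p = 0.0381), and the EZH2i call was lost without any of 5 of the 6 libraries, with values of -0.33 to -0.23 and an adjusted p up to 0.209. The groups did not overlap, and the plasma cell markers of SUDHL6 summed to 394 to 403 CPM with the combination and 512 to 527 CPM with EZH2i, against 561 to 585 CPM with DMSO. Of the 9, 2 rose and 2 fell with the combination, where 39.3% of all genes were called in SUDHL6. With EZH2i 2 rose and 1 fell, and the part of these markers in the SDC1 result was not tested. In Oci-Ly8 the combination had 1, 2 and 0 counts and EZH2i 0, 0 and 1 count, and DOT1Li and DMSO had none, which is at or under the floor of 3 counts. No SDC1 count was seen in Oci-Ly7 under any treatment.

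RefSeq promoter windows, the 250 bases before an annotated transcript start in GRCh38.p14, were found for 5 of the 8 genes, CD22, CD38, CD52, MME and SDC1, with more than 1 window for MME and SDC1. Shown here are SDC1, which was without counts in Oci-Ly7 and was raised by both inhibitors in Oci-Ly18, and CD52, in which the groups with the DOT1L inhibitor stood apart from EZH2i in SUDHL6, because the windows printed hold the most and the least CpG relative to base composition among the 5. Letters run 5′ to 3′ on the gene's strand, and capitals mark CpG dinucleotides.
SDC1 (minus strand, chr2:20225476-20225725): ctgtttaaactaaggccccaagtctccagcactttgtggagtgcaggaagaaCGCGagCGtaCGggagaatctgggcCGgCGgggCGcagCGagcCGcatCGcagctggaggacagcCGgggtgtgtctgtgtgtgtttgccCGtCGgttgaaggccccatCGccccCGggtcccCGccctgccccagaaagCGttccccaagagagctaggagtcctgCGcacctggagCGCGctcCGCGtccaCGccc
CD52 (plus strand, chr1:26317708-26317957): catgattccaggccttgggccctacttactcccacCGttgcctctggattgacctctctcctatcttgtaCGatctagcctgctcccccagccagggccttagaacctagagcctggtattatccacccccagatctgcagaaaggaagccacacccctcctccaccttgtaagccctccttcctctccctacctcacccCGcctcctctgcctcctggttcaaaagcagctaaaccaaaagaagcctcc
The SDC1 window holds 23 CpG, an observed over expected ratio of 0.835 at 66.4% GC, and the CD52 window 3 CpG, a ratio of 0.186 at 56.4% GC. The other SDC1 window had a ratio of 0.648, the windows of CD22 and CD38 had 0.413 and 0.206, and those of MME had 0.604 to 0.771. A ratio of at least 0.6 with at least 50% GC was found in 45% of the 35116 windows in the table. The octamer ATGCAAAT, the motif of the lymphoid OCT factors, was searched on both strands and was in none of the 9 windows of the 5 genes, while 1.63% of all windows hold it. No chromatin measurement was used here, so these letters are a description.

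The combination was also compared with each inhibitor alone. Against DOT1Li alone, 12 of 32 gene and line pairs passed, 6 higher and 6 lower, where 21.2% of pairs over all genes passed (12.3% higher and 8.88% lower). They were CD22, CD37 and MME in Oci-Ly7, CD37 and CD38 in Oci-Ly8, MS4A1, CD22 and SDC1 in SUDHL6, and CD22, CD37, CD70 and SDC1 in Oci-Ly18. The CD37 value in Oci-Ly18, 0.64 with overlapping groups, was lost without DOT1Li replicate 1 or 2 or Combo replicate 2 or 3, at 0.49 to 0.58, and that in Oci-Ly8, -0.48, became -0.46 (edgeR adjusted p = 0.0546) without Oci-Ly8 Combo replicate 3. Against EZH2i alone, 7 of 32 passed, 5 higher and 2 lower, where 11.5% passed (6.54% higher and 5% lower). In SUDHL6 5 of the 8 genes passed, where 7.12% of all genes did: MS4A1, CD22, CD52 and CD70 were higher and CD38 lower. The remaining calls against EZH2i were CD37 in Oci-Ly7 and CD38 in Oci-Ly8. With the replicate block 13 of 32 passed against EZH2i, but the share over all genes was not taken with the block. Same-numbered libraries deviated together, with every r over 0.1, between DOT1Li and the combination in Oci-Ly7. They also did so between EZH2i and the combination in SUDHL6. The labels give only a replicate number, so a pairing there is a hint from the data. There the block added calls for MS4A1 (-0.23, edgeR adjusted p = 0.00991) and CD38 (-0.34, edgeR adjusted p = 0.000433) in Oci-Ly7 against DOT1Li, and for MME (-0.32, edgeR adjusted p = 0.000485) in SUDHL6 against EZH2i. In SUDHL6 the CD70 value of 0.72 (edgeR adjusted p = 0.0348) was lost without any of 4 of the 6 libraries, at 0.55 to 0.72, and the CD38 value of -0.59 (edgeR adjusted p = 0.00364) became -0.44 (adjusted p = 0.0613) without SUDHL6 EZH2i replicate 1. In Oci-Ly18 no gene passed against EZH2i alone in edgeR, with 2 at an unadjusted p under 0.05, CD52 and CD70, and none passed in DESeq2, where 12.8% of all genes passed in edgeR. Averaged over lines, CD22 at 0.20 ± 0.05 (edgeR adjusted p = 0.00517) and CD52 at 0.39 ± 0.06 (edgeR adjusted p = 2.90e-06) were higher in the combination than with EZH2i alone, 2 of 8 genes where 25% of all genes passed. Against DOT1Li alone MS4A1 was higher by 0.60 ± 0.05, MME higher by 0.20 ± 0.05 and CD22 lower at -0.23 ± 0.05, which makes 3 of 8 genes where 35.2% of all genes passed.

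A departure from additive effects on the log2 scale was not detected in any of the 32 gene and line pairs by edgeR, where 0.134% of pairs over all genes passed, and 5 pairs had an unadjusted p under 0.05. DESeq2 called none of the 32 either. The pairs at an unadjusted p under 0.05 were CD38 in SUDHL6 at -0.61 ± 0.19, CD38 in Oci-Ly18 at 0.46 ± 0.18, SDC1 in Oci-Ly18 at -0.50 ± 0.17, CD37 in Oci-Ly7 at -0.58 ± 0.21 and MS4A1 in Oci-Ly8 at -0.35 ± 0.14, with edgeR adjusted p-values of 0.352 to 0.896. Single libraries decide some of these: CD37 in Oci-Ly7 was at -0.87 (edgeR adjusted p = 0.0147) without Oci-Ly7 Combo replicate 1. Without Oci-Ly8 DMSO replicate 2, MS4A1 in Oci-Ly8 was at -0.55 (edgeR adjusted p = 0.0131) and CD22 there at -0.54 (edgeR adjusted p = 0.0391), against -0.30 with it. Averaged over lines, none of the 8 was called by edgeR or DESeq2 and none had an unadjusted p under 0.05, where 0.0507% of all genes passed.

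The differences between lines were tested directly. For CD70 and SDC1 these tests rest on the lines with counts, since CD70 had none in Oci-Ly8 and SDC1 none in Oci-Ly7. In Oci-Ly8 SDC1 had at most 3 counts in a group. For the combination the effect on all 8 genes differed between lines, where 43.8% of all genes passed this F test. For EZH2i it differed for 7 of 8, where 24% of all genes passed, and CD52 was the gene that did not pass (edgeR adjusted p = 0.165). For DOT1Li it differed for 2 of 8, MS4A1 (edgeR adjusted p = 0.00584) and CD22 (edgeR adjusted p = 6.81e-06), where 5.14% of all genes passed. The CD37 difference for EZH2i (edgeR adjusted p = 0.0192) was lost without Oci-Ly18 DMSO replicate 1 or 2 or Oci-Ly18 EZH2i replicate 3, at adjusted p-values of 0.0698 to 0.0981. By line, SUDHL6 had 7 of its 8 genes called under the combination (39.3% of all genes), Oci-Ly7 6 of 8 (29.8%), and Oci-Ly8 and Oci-Ly18 4 of 8 each (35% in both).

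**Figure D4:**
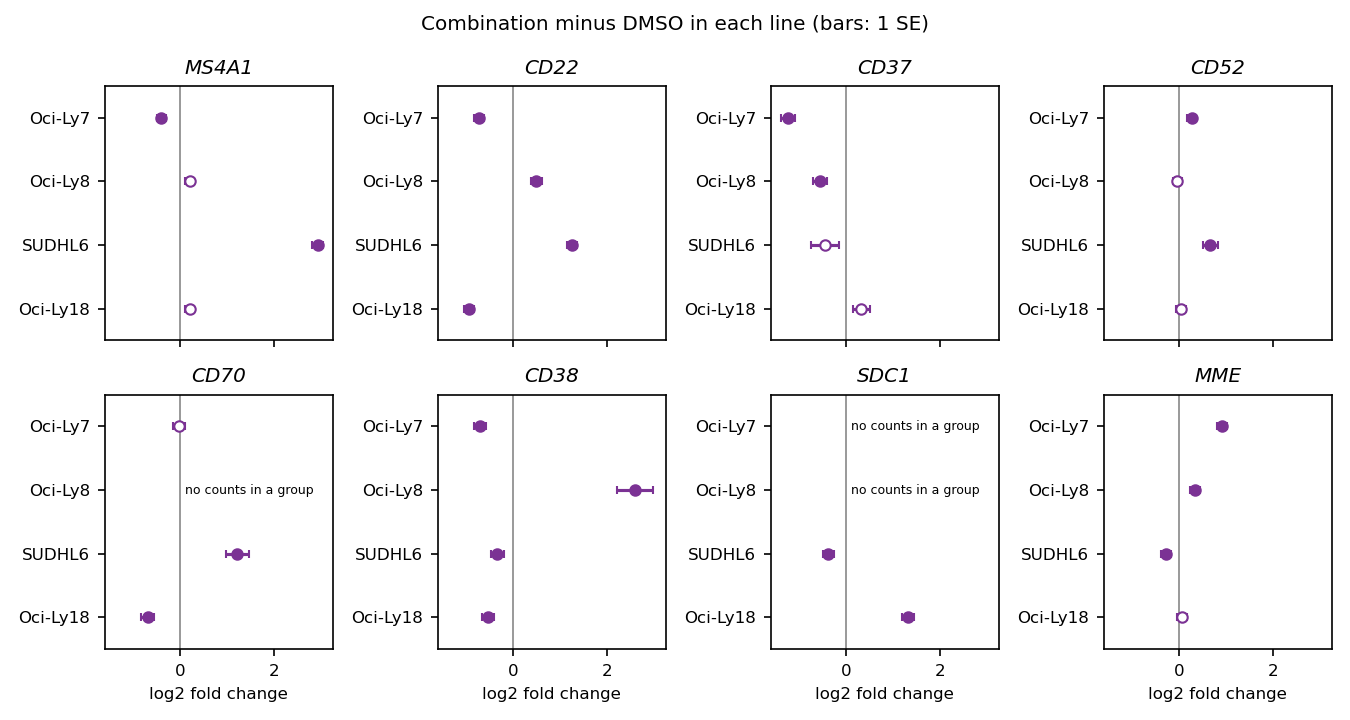
Points give the log2 fold change of the combination against DMSO in each line with bars of 1 SE, and filled points are called. CD22 lies right of 0 in Oci-Ly8 and SUDHL6 and left of 0 in Oci-Ly7 and Oci-Ly18, and CD70 and SDC1 have called points on opposite sides of 0 in SUDHL6 and Oci-Ly18.

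The transcripts whose pattern over treatments was most like each antigen were taken from 10236 protein-coding genes, by Pearson correlation over the 16 group means of log2 CPM after each line's mean was removed. These values are descriptions, since the groups share lines and libraries. SLC16A7, a monocarboxylate transporter, was closest to MS4A1 with r = 0.988, followed by KANK1 (0.958) and ZNF704 (0.948). ZNF436 was closest to CD52 (0.967) and POP5 to CD37 (0.927). HERC5 was closest to CD38 (0.915), followed by TRIM44 (0.912) and IRF7 (0.903). NFIB was closest to MME (0.922), LZTS1 to SDC1 (0.911), ITGAL, an integrin chain, to CD22 (0.906) and GCSAM, a germinal centre adaptor, to CD70 (0.899).

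Genes related to the 8 antigens were read from lists of the same families and pathways, as averages over lines against DMSO. For these averages 46.4% of all genes were called with the combination, 28.2% with EZH2i and 10.3% with DOT1Li, and each count below is to be read against that share. Of 25 other lymphoma or myeloma antigens tested, 12 were higher and 3 lower with the combination, 8 and 4 with EZH2i and 5 and 0 with DOT1Li. The BAFF receptor TNFRSF13C rose by 1.63 ± 0.07 with the combination and 1.01 ± 0.07 with EZH2i, with line values of 0.58 to 3.39 and -0.05 to 2.75 that were highest in Oci-Ly18. The inhibitory Fc receptor FCGR2B rose by 0.73 ± 0.12 with DOT1Li, and TACI, TNFRSF13B, fell by 0.68 with EZH2i although Oci-Ly18 was at 0.09. Of 12 CD22 signalling partners and other Siglecs, 4 were higher and 6 lower with the combination, where 46.4% of all genes were called. The kinase SYK fell by 0.60 with the combination and by 0.37 with EZH2i, the phosphatase gene INPP5D fell by 0.24 with EZH2i, and ST6GAL1, which makes the sialic acid ligand of CD22, fell by 0.27 with DOT1Li. CD33, a myeloid Siglec, rose by 1.30 ± 0.10 with the combination, with line values from 0.17 in SUDHL6 up to 2.85 in Oci-Ly7.

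Only 2 of 10 MS4A relatives in the table passed the filter, MS4A7 and MS4A4A. Both were called higher with the combination on average, but the lines differed. MS4A7 was at -0.50 in Oci-Ly7, 1.44 in Oci-Ly8, 3.72 in SUDHL6 and 0.12 in Oci-Ly18, and MS4A4A had means of 0.315 CPM with the combination and 0 with DMSO in SUDHL6 and was at -0.24 in Oci-Ly8 and -0.14 in Oci-Ly18. Among 18 tetraspanins, 6 were higher and 1 lower with the combination, where 46.4% of all genes were called. With EZH2i 6 were also higher and 1 lower, where 28.2% of all genes were called. Of the 18, 4 had no count in some DMSO or combination group. With the combination TSPAN4 was at 0.87 ± 0.11 and TSPAN3 at 0.57 ± 0.05. With DOT1Li 2 were higher and 3 lower, with TSPAN33 at -0.37 ± 0.06 and CD9 at 0.49 ± 0.07, an average that came from Oci-Ly18 at 2.12, while the other lines were at -0.18 to 0.05. Among 12 ectoenzymes on nucleotides and peptides, 5 were higher and 1 lower with the combination, near the 46.4% of all genes. ENPP3 was called higher on average, with means of 9.92, 15.3, 3.13 and 0.245 CPM with the combination in SUDHL6, Oci-Ly7, Oci-Ly8 and Oci-Ly18, against 0.799, 3.21, 3.99 and 0 CPM with DMSO, and NAMPT, which makes a precursor of the NAD that CD38 consumes, fell by 0.28. Of 13 genes of the CD70 receptor, its adaptors and other TNF ligands, 2 were higher and 2 lower with the combination, a smaller share than that of all genes. Of the 16 genes on this list before the filter, 8 had no count in some DMSO or combination group, and their part in the share was not tested. The OX40 ligand TNFSF4 rose by 1.06 ± 0.14 and the adaptor TRAF2 fell by 0.27. Of 18 syndecans and heparan sulfate synthesis genes, 7 were higher and 1 lower with the combination, near the 46.4% of all genes, with NDST1 at 0.64 ± 0.06 and XYLT1 at 0.50 ± 0.07 (1.46 in Oci-Ly8 and -0.16 in Oci-Ly18). Of 23 genes of GPI anchor synthesis, which CD52 needs, 9 were higher and 2 lower, again near the 46.4% of all genes, with a median log2 fold change of 0.12 beside 0.08 over all genes, PIGM at 0.61 ± 0.05 and PIGC at 0.37 ± 0.05. No median is given for the other lists, which hold more genes with no count in a compared group.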

How the data were processed

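RNA was measured by poly(A)-selected stranded RNA-seq in 48 libraries, and the authors deposited raw counts per gene, with coordinates, in 1 table. The submitters' processing notes name STAR, DESeq2 and GRCh38 (hg38) without roles. Not given in the sources used here are the counter, its strand setting, the annotation release, tool versions and inhibitor doses. The growth protocol in the labels repeats Oci-Ly8 and omits Oci-Ly7, and the lines follow the sample labels.

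The counts were tested with edgeR 4.0.16 (R 4.3.3): TMM scaling, filterByExpr on the 16 groups (17749 of 37706 genes kept), 1 mean per group (32 residual degrees of freedom), robust quasi-likelihood F tests and Benjamini-Hochberg adjustment over all genes tested, called under 0.05. SEs were derived as the absolute log2 fold change divided by sqrt(F). Exonic lengths came from GENCODE 29 and promoter sequences from RefSeq. The code was checked on simulated counts. No replicates matched within sampling noise (lowest chi-square per degree of freedom 1.87). Alternatives were other scaling and filters, DESeq2 1.42.0, a replicate block, single-line fits and left-out libraries. Same-numbered libraries deviated together, every r over 0.1, in 3 of 24 pairs of groups. All 48 libraries correlated best with their own number, a structure that the main fit, without the block, leaves out.

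The 8 genes, the lists and the tests were chosen with earlier results of these data known. Named from each list were at most the 2 called genes with the smallest adjusted p in each averaged comparison, and from the correlations at most the nearest 3. CD27 was named outside this rule, as the receptor of CD70, with levels given for Oci-Ly18 and SUDHL6 only.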

Additional observations from a re-analysis of the deposited data

Results flagged for a closer look

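The effect of treatment differed between lines for most of the 8 genes, by an F test of the difference itself in the edgeR fit of all genes. These are the results marked for a second look. For CD70 and SDC1 the test rests on the lines with counts and does not cover all 4 lines. For the combination against DMSO the adjusted p-values were 8.23e-23 for MS4A1, 7.07e-16 for CD22, 2.76e-09 for SDC1, 1.23e-07 for CD38, 1.95e-07 for MME, 7.25e-06 for CD70, 1.79e-05 for CD37 and 0.00861 for CD52. For EZH2i against DMSO the edgeR adjusted p-values were 4.44e-17 for MS4A1, 4.10e-09 for CD22, 5.00e-07 for SDC1, 5.22e-05 for CD70, 5.92e-05 for CD38, 0.000303 for MME and 0.0192 for CD37. For DOT1Li against DMSO they were 6.81e-06 for CD22 and 0.00584 for MS4A1. In MS4A1 and CD22 the difference was present for all 3 treatments.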

How the results depend on the processing

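The number of calls among the 8 genes depended on several settings. DOT1Li within lines had 5 calls of 32, and 9 with no filter on low counts, 11 with the replicate block, 8 without both Oci-Ly8 libraries with few counts from long transcripts and 9 with each line fitted on its own. Its averages went to 4 calls with no filter, against 2, and its differences between lines to 5 with no filter, 6 with the replicate block and 4 without both Oci-Ly8 libraries, against 2. EZH2i within lines went to 20 calls with the replicate block, against 13, and its averages to 5 both with no filter and with the block, against 3. The combination against EZH2i within lines went to 13 calls with the block and 11 without both Oci-Ly8 libraries, against 7. Departures from additivity within lines numbered 2 with no filter, 3 with the block and 1 with each line on its own, against 0. The cause of these moves was not tested, and the share of all genes called was not taken under these settings. CD52 in Oci-Ly8, combination against DMSO, changed sign, at 0.225 without both Oci-Ly8 libraries and -0.03 with them. It was not called with any 1 library left out. With each of the 48 libraries left out in turn, calls within lines ranged from 19 to 23 for the combination, 11 to 16 for EZH2i, 5 to 8 for DOT1Li and 0 to 2 for departures from additivity. They ranged from 11 to 14 for the combination against DOT1Li and 5 to 9 against EZH2i, and differences between lines under DOT1Li from 2 to 4. Same-numbered libraries deviated together with r of 0.0195 to 0.415, over 0.1 in 17 of 72 pairs. All 3 pairs were over 0.1 in 3 of 24 pairs of groups, Oci-Ly8 DOT1Li with DMSO, Oci-Ly7 combination with DOT1Li and SUDHL6 combination with EZH2i. In the first of these the replicate block changed no call. In the other pairs of groups not all 3 were over 0.1, although all 48 libraries correlated best with their own number. This is a hint from the data of a shared structure, which the fit without the block leaves out. The labels give only a replicate number. DESeq2 was not run for differences between lines. Depth limits CD70 in SUDHL6, CD38 in Oci-Ly8 and SDC1 in Oci-Ly8, where libraries held few counts or none.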
